A study of Arabidopsis thaliana with 8 samples.

Results

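Promoters whose nucleosome was listed after a low micrococcal nuclease (MNase) digest but not after a high digest were collected in root explants given mock treatment. A promoter was taken as the window from -300 to 0 bp relative to the annotated start of a protein-coding gene. It was counted when it held the center of a significant nucleosome of the low digest mock list, and when that nucleosome shared not a single base with any nucleosome of the high digest mock list. Of 27444 protein-coding genes on the 5 nuclear chromosomes, 12280 (44.7%) had a low digest center in the window and 1611 of these met the rule, which was 5.87% of all promoters and 13.1% of those with a low digest center. Over the whole nuclear genome, 5755 of 316733 low digest nucleosomes (1.82%) overlapped no high digest interval. The 1611 promoters are called digest-sensitive here. The name stands for presence in one list and absence from the other, and these shares follow from the rule itself.

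MNase-seq had been carried out to learn where nucleosomes sit ahead of nuclear entry of LEAFY (LFY), a transcription factor. All plants were Arabidopsis thaliana of the Landsberg erecta background that carry 35S:LFY-GR, LFY fused to the steroid-responsive part of the glucocorticoid receptor under a viral promoter that is active in most tissues. Roots of seedlings were kept on callus-inducing medium (CIM) for up to 5 days, and tissue labelled as callus received mock solution or dexamethasone (dex) for 1 h before a low or a high digest. For each of the 4 combinations 2 libraries were labelled and 1 list of nucleosomes was used. The lists are named as pooled, but the study's methods state pooling before calling for low digest dex alone, and the name field of the low digest mock list ends in a single library number, so how many libraries stand behind each list is not known here. The mock plants carry the transgene as well, the explants hold several cell types, and the tissue label was not checked against marker genes, as these lists hold no expression. Each condition is thus 1 list with no spread between replicates and no test, and the Wilson 95% intervals given below cover counting error only. The low digest mock list held 316733 nuclear nucleosomes on 36.1% of the genome and the high digest mock list 482098 on 54.4%. Most intervals lie on a grid of 10 bp, and reads from Landsberg erecta were placed on the Columbia reference. Read numbers are not in the lists, so depth and list length cannot be told apart. When the high digest mock list was shortened by its own occupancy rank to the length of the low digest mock list, 6280 promoters met the rule instead of 1611. The remaining lists, used as readouts outside the rule, were low digest dex with 242336 nucleosomes and a list labelled high digest dex with 376240, whose name field inside the file reads as a low digest dex library.

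A nucleosome is DNA wrapped around an octamer of histones, and MNase cuts the linker DNA between nucleosomes. With more enzyme the ends and weakly held particles are digested as well, so nucleosomes or other particles that are found after gentle cutting only are often called fragile. Fragile particles are known from the region just upstream of gene starts in yeast and plants, where general transcription factors, sequence-specific factors and chromatin remodelers also act. MNase cuts DNA rich in A and T more readily, and a protected fragment of nucleosome size does not by itself show histones.

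The underlying DNA of 9 of these nucleosomes is shown because they carry the results described below: the member with the highest occupancy rank among those with a symbol and a window free of other genes (UBQ10), the 3 high-ranking members that hold the element TGGGCC (CPK5, ATCHR12 and UAP56b), and 5 genes of regulation and stimulus response (FLC, ERF-1, TCH2, AS1 and ACR7). Sequences are from the RefSeq genome of the Columbia accession (TAIR10.1, with TAIR10 coordinates), are written 5' to 3' on the strand of the gene, and stop at the gene start where the interval of 140 bp reached past it. The intervals of the first group lay at UBQ10 (AT4G05320) chr4:2717722-2717861 on the plus strand, CPK5 (AT4G35310) chr4:16801262-16801401 on the plus strand, ATCHR12 (AT3G06010) chr3:1807531-1807651 on the minus strand, UAP56b (AT5G11200) chr5:3566982-3567121 on the plus strand. Those of the regulatory and responsive genes lay at FLC (AT5G10140) chr5:3179512-3179651 on the minus strand, ERF-1 (AT4G17500) chr4:9758982-9759121 on the plus strand, TCH2 (AT5G37770) chr5:14999632-14999771 on the minus strand, AS1 (AT2G37630) chr2:15783492-15783631 on the minus strand, ACR7 (AT4G22780) chr4:11971402-11971541 on the minus strand. All lie upstream of the annotated gene start and outside the coding sequence of the named gene. Capitals mark matches, on either strand, to any motif searched. These were the TATA box core (TATAAA), the G-box (CACGTG), the W-box core (TTGAC), the GAGA repeat (GAGAGA), the site II core (TGGGCC), the telo-box core (AACCCTA), the LFY core motif (CCANTGG) and runs of 8 A or T.
UBQ10: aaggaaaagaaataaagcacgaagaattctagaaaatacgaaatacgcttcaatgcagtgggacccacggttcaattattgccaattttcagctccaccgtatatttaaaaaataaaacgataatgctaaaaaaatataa
CPK5: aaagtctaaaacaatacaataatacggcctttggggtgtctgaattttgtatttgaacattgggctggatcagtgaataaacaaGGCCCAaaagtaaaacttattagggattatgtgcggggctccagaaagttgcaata
ATCHR12: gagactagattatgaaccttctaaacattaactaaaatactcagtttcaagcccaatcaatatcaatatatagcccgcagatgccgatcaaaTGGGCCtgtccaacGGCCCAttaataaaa
UAP56b: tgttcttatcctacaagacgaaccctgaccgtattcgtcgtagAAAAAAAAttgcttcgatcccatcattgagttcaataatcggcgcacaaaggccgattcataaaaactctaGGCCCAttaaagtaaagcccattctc
FLC: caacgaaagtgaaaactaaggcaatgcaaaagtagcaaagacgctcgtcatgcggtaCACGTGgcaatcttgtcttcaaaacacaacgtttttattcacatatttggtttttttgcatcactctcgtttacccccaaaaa
ERF-1: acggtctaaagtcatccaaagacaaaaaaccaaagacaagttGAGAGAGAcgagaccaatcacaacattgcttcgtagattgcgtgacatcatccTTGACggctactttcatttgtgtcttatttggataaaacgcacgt
TCH2: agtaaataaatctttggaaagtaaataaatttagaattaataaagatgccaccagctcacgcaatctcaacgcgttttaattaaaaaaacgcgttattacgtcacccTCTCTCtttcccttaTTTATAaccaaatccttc
AS1: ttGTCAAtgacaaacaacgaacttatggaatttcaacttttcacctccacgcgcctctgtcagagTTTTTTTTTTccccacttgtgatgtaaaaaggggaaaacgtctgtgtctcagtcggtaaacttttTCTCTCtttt
ACR7: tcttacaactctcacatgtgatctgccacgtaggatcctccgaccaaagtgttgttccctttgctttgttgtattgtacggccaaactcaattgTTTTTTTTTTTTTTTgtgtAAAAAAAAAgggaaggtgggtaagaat

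UBQ10, which encodes a polyubiquitin and is used widely as a housekeeping control, had the digest-sensitive nucleosome with the highest occupancy rank among members with a gene symbol and a window that overlaps no other annotated gene. Its center lay at -185 bp, its occupancy was above that of 99.8% of the low digest mock list, and the nearest high digest intervals were 590 bp upstream and 50 bp downstream. In the dex lists, 110 of its 140 bases were covered in low digest dex against 0 in the list labelled high digest dex. The nucleosome over the UBQ10 start itself was listed after both mock digests, at an occupancy percentile of 99.99 in the low digest list and of 18.0 in the high digest list. Low digest mock intervals starting at -965 and -845 bp were at 99.99 and 99.97, and those starting at -585 and 975 bp at 29.4 and 30.5. In low digest dex, all intervals listed from -1015 to 404 bp were at 99.96 to 99.996. A high rank was thus not particular to the digest-sensitive nucleosome at this locus. UBQ14, a second polyubiquitin gene, had its digest-sensitive center at -66 bp with a percentile of 99.7, and all 140 bases were covered in both dex lists. Both polyubiquitin promoters therefore ranked near the top of the low digest list, but they differed in the list labelled high digest dex.

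The other 10 of the 12 highest-ranking members had occupancy percentiles from 99.1 to 99.8, and their genes act in organelles, signaling, chromatin and RNA. ARC3, a regulator of chloroplast division, had its center at -109 bp, with 130 bases covered in low digest dex against 110 in the list labelled high digest dex. Where 2 numbers of bases follow each other from here on, they give these lists in this order, out of 140 bases. CLPC1, a chloroplast chaperone, had its center at -241 bp and 130 and 120 bases covered. CYP97A3, a carotenoid hydroxylase of the chloroplast, had its center at -220 bp and 130 and 110 bases covered. The nucleosomes of these 3 plastid genes were thus found again in both dex lists. KAK, a HECT-type ubiquitin ligase known for its role in trichome cells, had its center at -262 bp and 130 bases covered in either dex list. SIZ1, a SUMO ligase, had its center at -82 bp with 90 and 130 bases covered. CPK5, a calcium-dependent protein kinase, had its center at -273 bp with 120 and 130 bases covered. Protein modification and calcium signaling were represented by these 3 genes and MPK16, a MAP kinase, whose nucleosome at -105 bp was covered over 100 and 120 bases. ATCHR12, an ATPase of the SWI/SNF type, had its center at -52 bp with 110 and 100 bases covered. UAP56b, an RNA helicase of mRNA export, had its center at -122 bp and 120 bases covered in either list. SYP42, a syntaxin of the trans-Golgi network, had its center at -110 bp with 140 bases covered in low digest dex but 60 in the list labelled high digest dex. Of these 10 genes, SYP42 was the one with less than 50% of its nucleosome covered in a dex list.

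The digest-sensitive nucleosomes sat close to the gene start. The 1611 promoters held 1499 distinct nucleosomes, since 156 were shared by 2 genes and 2 by 3 or more, and 1563 promoters held 1 and 48 held 2. The median center was at -76 bp, with quartiles at -124 and -37 bp, whereas the 12774 other low digest nucleosomes in promoters had a median of -141 bp. The center lay within 150 bp of the start in 82.2% of digest-sensitive nucleosomes (80.2 to 84.0%) and in 53.2% of the others (52.3 to 54.0%). The interval itself reached the start in 47.2% (44.7 to 49.8%) against 24.6% (23.9 to 25.4%). Over all genes, high digest mock coverage within the window was lowest at -40 bp (38.0%) and highest at -290 bp (44.8%). The rule asks for absence of high digest intervals, so these positions are not independent of it. Centers fell between annotated genes in 83.1% of digest-sensitive nucleosomes and 67.1% of the others, and in coding sequence in 0.667% and 12.2%, respectively. GC content was somewhat lower in digest-sensitive nucleosomes, with medians of 38.6% and 39.3%. The quartiles were 35.7% and 40.7% in this group, against 37.1% and 42.9% in the others. The occupancy percentile had a median of 55.4 in the digest-sensitive group and 61.6 in the others. The upper 10% of the list held 20.9% of digest-sensitive nucleosomes and 23.5% of the others, and the lower 10% held 13.9% and 10.2%.

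**Figure D1:**
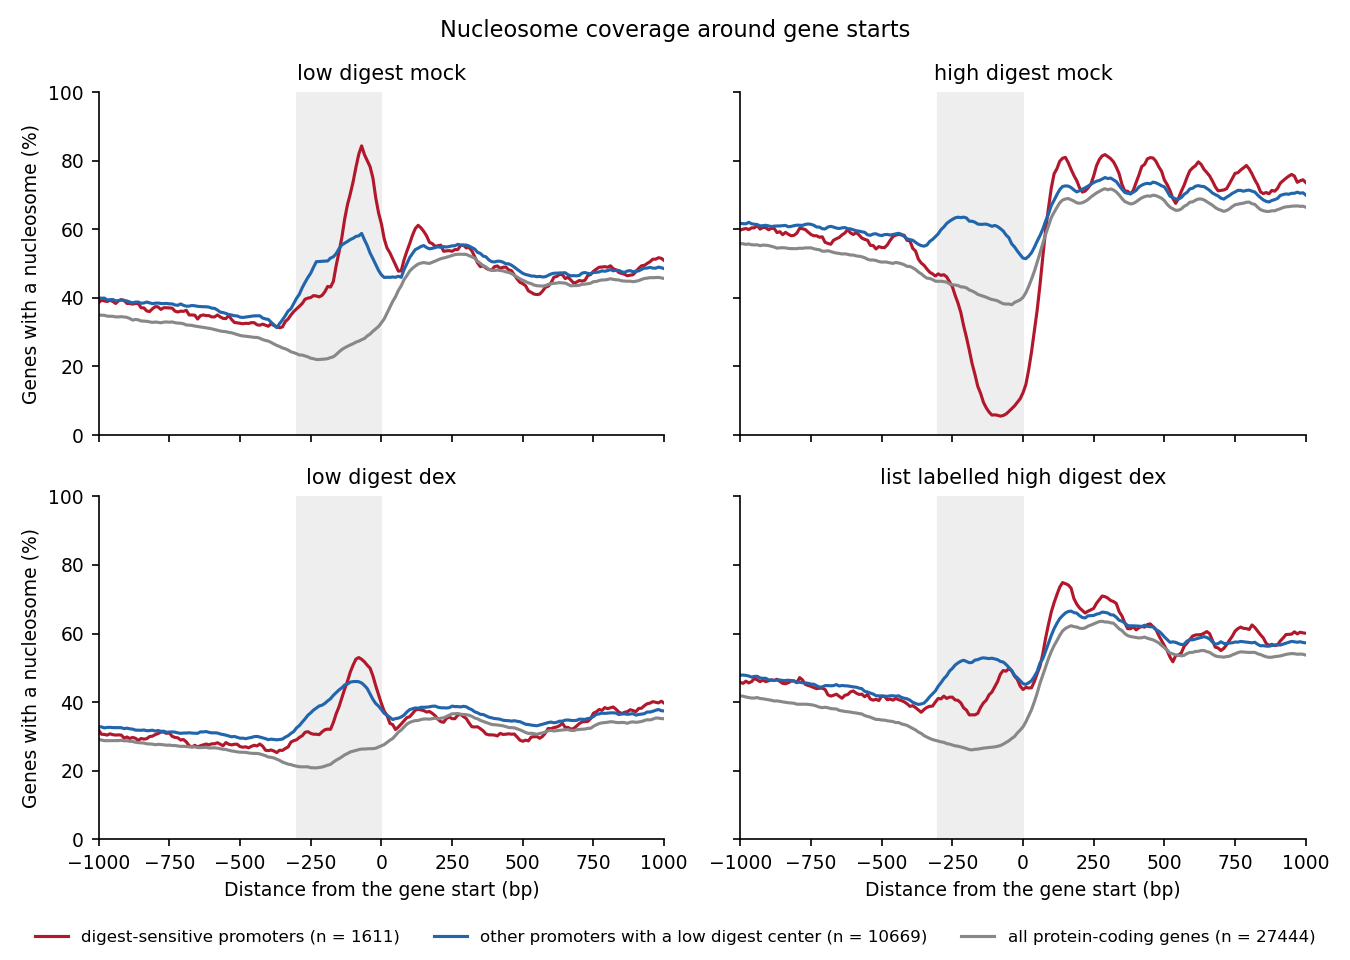
Share of genes (percent) with a nucleosome at each distance (bp) from the gene start, in each of the 4 lists, for the 1611 digest-sensitive promoters, the 10669 other promoters with a low digest center and all 27444 protein-coding genes; the window used by the rule is shaded. The low digest mock peak at -70 bp and the high digest mock trough at -80 bp follow from the rule. The rule also keeps high digest mock intervals off each digest-sensitive nucleosome, so the high digest mock curve just downstream of the start is not independent of it. The dex lists were not used by the rule.

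Coverage around the start showed what flanked these nucleosomes. At -80 bp, where the rule fixed the contrast, the low digest mock list covered 81.9% of digest-sensitive promoters and the high digest mock list 5.52%, beside 58.1% and 60.2% of the other promoters with a low digest center. Farther upstream, between -1000 and -500 bp, high digest mock coverage averaged 58.4% in the digest-sensitive group and 60.5% in the others. Downstream, coverage of the digest-sensitive genes in high digest mock reached 81.8% at 290 bp, against 75.1% in the other group and 71.8% over all genes. In the list labelled high digest dex, the digest-sensitive genes reached 74.9% at 140 bp, against 66.5% at 170 bp for the others. A high digest center from 1 to 200 bp downstream, in the zone of the first nucleosome of the gene body, was present in 84.1% of the digest-sensitive genes and 82.2% of the others. The first such center lay at a median of 137 bp in the former and 120 bp in the latter. The rule bars high digest intervals from the digest-sensitive nucleosome, which often reached the start, so these distances are not independent of the rule. Within the window, where the rule itself lowers high digest mock coverage in the digest-sensitive group, that coverage reached 47.0% at most, at -300 bp. The others, whose low digest nucleosomes in the window overlap high digest intervals by definition, did not fall below 51.6%. At -500 bp the values were 54.7% and 58.2%, and downstream at 290 bp the digest-sensitive group was the higher one.

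The stretch free of high digest intervals around a digest-sensitive nucleosome had a median length of 340 bp, including the 140 bp of the nucleosome. Of the 1499 nucleosomes, 627 had a gap of at least 50 bp on both sides, 386 had a gap of 10 bp or less on at least 1 side, and 186 touched a high digest interval without overlap. EXO70F1, ERD7 and EHD2, with a gap of 0 bp downstream, were the highest-ranking members just inside the rule. Just outside it were ADCL with 5 bp of overlap, and EDA10 and SNX2a with 10 bp each, among 178 other nucleosomes with an overlap of 10 bp or less. In 559 digest-sensitive promoters (34.7%) the whole window held no high digest interval, beside 20.3% of all promoters. In 726 (45.1%) a high digest center lay elsewhere in the window, whereas 67.6% of all promoters had a high digest center in it. In 497 (30.9%) a second low digest center overlapped a high digest interval. The rule keeps high digest intervals off part of each of these windows, so the shares are not independent of it. The opposite arrangement, a high digest nucleosome that overlaps no low digest interval, was found in 8787 promoters (32.0% of all). Both kinds were held by 253 promoters, which was 15.7% of the digest-sensitive ones.

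**Figure D2:**
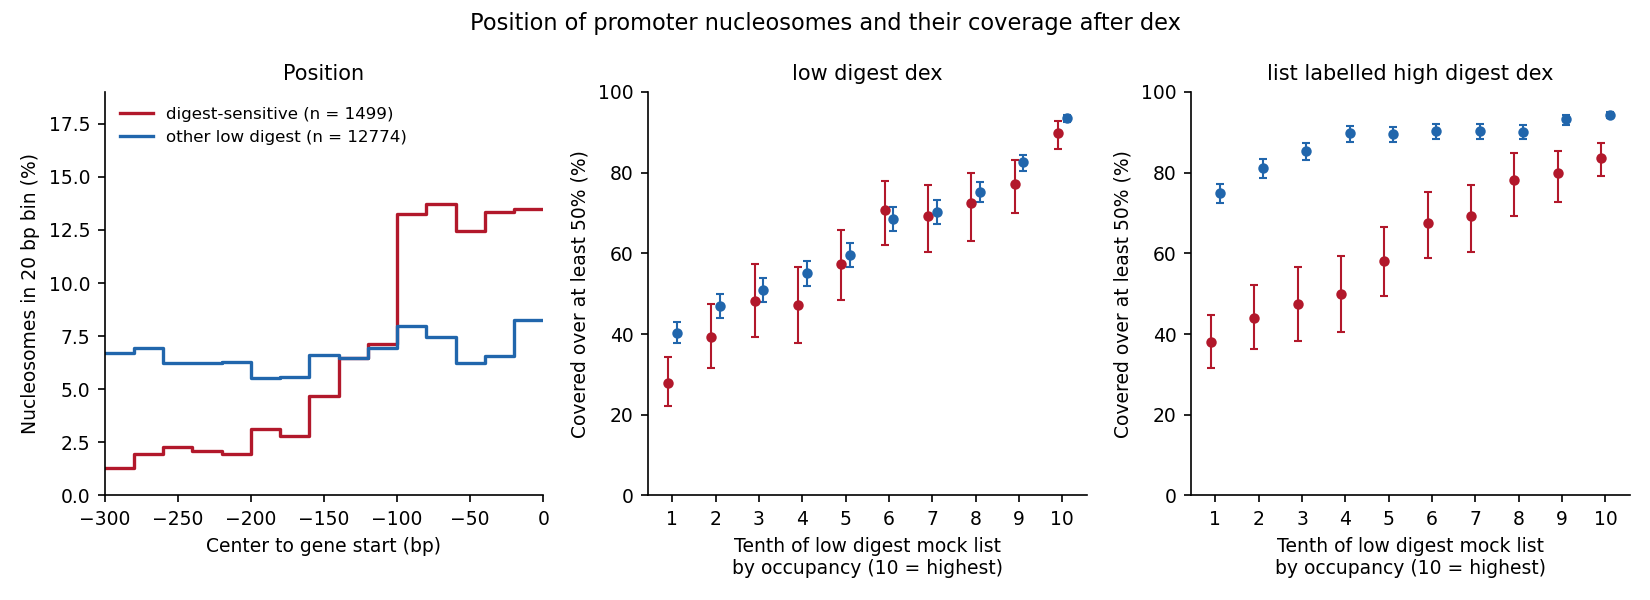
Left, distance (bp) of the nucleosome center from the gene start for 1499 digest-sensitive and 12774 other low digest nucleosomes in promoters, as percent per 20 bp bin. Middle and right, percent of nucleosomes covered over at least 50% of their length in each dex list, by 10% step of the low digest mock list, with Wilson 95% intervals; in the list labelled high digest dex the digest-sensitive group lies below the others in all 10 steps.

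The dex lists, which the rule had not used, separated the digest-sensitive nucleosomes from the others in one list far more than in the other. The others, however, overlap a high digest mock interval by definition. Where a dex list holds the same nucleosomes as the high digest mock list, the contrast therefore follows in part from the rule. In low digest dex, 62.0% of digest-sensitive nucleosomes (59.6 to 64.5%, 930 of 1499) were covered over at least 50% of their length, against 69.0% of the others (68.2 to 69.8%). With the others weighted to the same occupancy steps of 10%, their share was 66.9%. In the list labelled high digest dex, 63.2% (60.8 to 65.6%, 948 of 1499) were covered, against 88.8% of the others (88.2 to 89.3%) or 88.0% after the same weighting. Within 10 equal steps of the low digest mock list by occupancy, the digest-sensitive share in low digest dex was lower in 9 of 10 steps and the intervals were separate in 1. In the list labelled high digest dex it was lower in 10 of 10 steps, with separate intervals in each. In the lowest step, 38.0% of digest-sensitive and 74.98% of other nucleosomes were covered there, and in the highest step 83.8% and 94.4%. Most digest-sensitive nucleosomes were nevertheless present in the list labelled high digest dex, and 42.3% were covered in both dex lists. Coverage in low digest dex with absence from the list labelled high digest dex was found for 14.6% (12.9 to 16.5%) of the digest-sensitive nucleosomes. Of the others, 3.21% (2.92 to 3.53%) showed it. This is the pattern of the rule only if the label of that list holds. The reverse pattern was met by 15.3% and 19.6%, and neither dex list held any base of 11.1% and 1.32%. Mock and dex differ in treatment and in list, and these cannot be told apart.

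Among the motifs searched, TGGGCC differed most in share between digest-sensitive and other promoters. This sequence is the core of the site II element, which is known from promoters of ribosomal protein and cell proliferation genes and is bound by TCP transcription factors. It was present in 718 of 1611 digest-sensitive windows (44.6%, 42.2 to 47.0%), in 19.5% of the other windows with a low digest center (18.7 to 20.2%), in 8.12% of windows without one and in 14.7% of all 27444 windows. Within the nucleosome intervals the share was 36.5% (34.1 to 39.0%) against 10.7% (10.2 to 11.3%). Promoters with a high digest nucleosome that overlaps no low digest interval, members left out, held it in 8.31% (7.74 to 8.91%). The motif was in the list searched, whereas the closer description that follows was chosen after its values were seen.

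The higher share of TGGGCC in digest-sensitive nucleosomes was seen in each of 5 bins of nucleosome position. In each of 5 bins of window GC content, low-center promoters with TGGGCC were more often digest-sensitive than those without it. Nucleosomes centered from -300 to -200 bp held it in 27.5% of digest-sensitive and 5.58% of other cases. From -150 to -100 bp the shares were 40.3% and 12.7%, and from -50 to 0 bp 39.5% and 14.5%. In all 5 distance bins the intervals of the groups were separate. Read the other way, 25.7% (24.1 to 27.4%) of the 2794 low-center promoters with TGGGCC were digest-sensitive, against 9.41% (8.84 to 10.02%) of the 9486 without it. When windows were split into 5 bins by GC content, the share with the element was 47.2% (17 of 36), 35.4%, 31.4%, 22.8% and 24.0% from the poorest to the richest bin, and without it 19.3%, 13.0%, 8.51%, 7.67% and 9.34%. Among promoters with a divergent neighbor it was 27.5% with and 14.0% without the element, and among promoters whose window overlaps no other gene 26.2% and 9.58%. With ribosomal, pentatricopeptide repeat and translation factor genes left out it was 25.4% and 9.36%. The element itself lay most often between -80 and -60 bp, where 10.7% of digest-sensitive and 3.91% of other windows held it, whereas at the far end, from -300 to -280 bp, the shares were 0.435% and 0.609%. Of 1195 pairs of a match and a digest-sensitive nucleosome in the same promoter, 912 (76.3%) had the match inside the nucleosome interval, at a median of 36 bp from its center. A match is a description of the sequence, and binding was not measured.

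**Figure D3:**
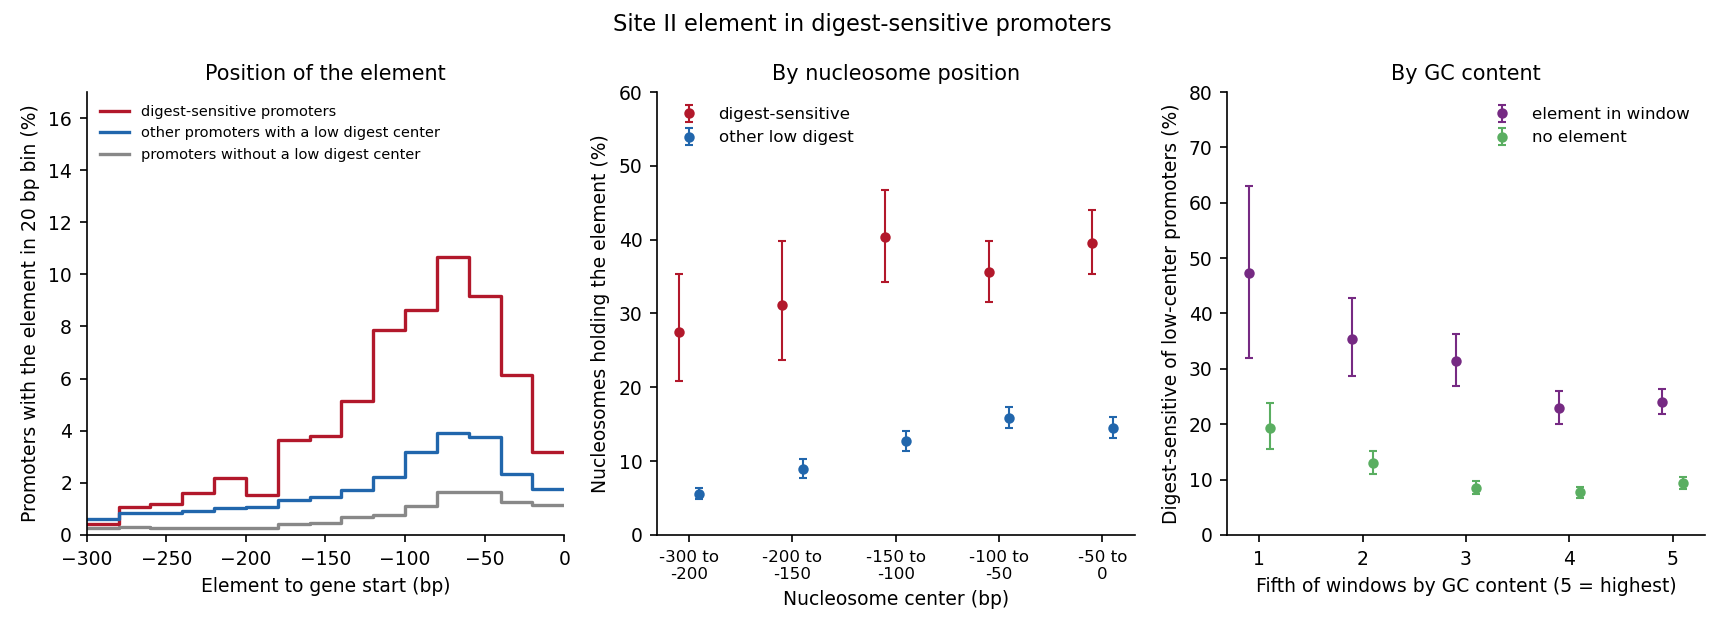
Left, percent of promoters with TGGGCC (the site II core) in each 20 bp bin upstream of the gene start. Middle, percent of nucleosomes holding it, by position of the nucleosome center. Right, percent of low-center promoters that were digest-sensitive with and without it, by 5 bins of GC content; bars are Wilson 95% intervals, which are separate between the groups in all 5 bins of the middle and right panels.

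TGGGCC-bearing nucleosomes also differed in the dex lists. Of the 547 digest-sensitive nucleosomes with the element, 70.9% (67.0 to 74.6%) were covered in low digest dex, against 56.9% (53.8 to 60.04%) of the 952 without it. In the list labelled high digest dex the shares were 64.5% (60.4 to 68.4%) and 62.5% (59.4 to 65.5%). For the other low digest nucleosomes in promoters, the element went with higher coverage in low digest dex (78.4% against 67.8%) and with lower coverage in the list labelled high digest dex (82.2% against 89.5%). Nucleosomes with the element also ranked higher in occupancy, with 23.0% against 19.7% of digest-sensitive and 36.6% against 21.9% of other nucleosomes in the upper 10% of the low digest mock list. With the nucleosomes without the element weighted to the same occupancy steps, the digest-sensitive shares in low digest dex were 70.9% with and 61.1% without it, and those in the list labelled high digest dex 64.5% and 66.2%, so that the latter difference changed sign. For the others the weighted comparison gave 78.4% and 74.9% in low digest dex, and 82.2% and 91.4% in the list labelled high digest dex, where the share with the element was higher in 0 of 10 steps.

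The other motifs differed less. TATAAA, the core of the TATA box, was in 22.9% of digest-sensitive nucleosomes (20.8 to 25.1%) and 14.8% of the others (14.2 to 15.5%), although over whole windows the shares were 47.0% and 43.4%, below the 53.0% of all promoters. By position of the nucleosome center, the TATAAA intervals of both groups overlapped in the bins from -150 to -100 and from -100 to -50 bp and were separate in the other 3. Runs of 8 A or T, which resist wrapping into nucleosomes, were in 15.1% (13.4 to 17.05%) and 6.95% (6.52 to 7.41%) of nucleosomes, and the intervals were separate in all 5 distance bins. GAGAGA, a repeat bound by GAGA-binding factors, was less frequent in digest-sensitive nucleosomes, at 13.1% (11.53 to 14.9%) against 17.3% (16.7 to 18.0%), but the intervals overlapped in 4 of 5 distance bins and the window shares were 27.4% and 28.3%. CACGTG, the G-box of light and hormone responses, was in 13.2% of digest-sensitive windows, 11.9% of the others and 7.10% of all promoters. TTGAC, the core of the W-box bound by WRKY factors, was in 49.97% and 51.8% of windows, with 50.5% over all promoters. AACCCTA, the telo-box core of translation genes, was in 9.68% and 9.28%, with 7.63% over all. CCANTGG, the core motif bound by LFY, was in 4.53% and 4.66%, with 3.58% over all. For these last 4 motifs the intervals of digest-sensitive and other windows overlapped. Both strands were searched and a window or interval was counted once per motif also where a match on one strand overlapped a match on the other. No spelled-out motif contains another. Of the sequences printed above, that of TCH2 holds TATAAA, those of AS1 and ACR7 hold long A or T runs, and that of FLC shows CACGTG.

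Digest-sensitive genes also differed in layout from other genes with a low digest center. A protein-coding gene on the opposite strand that starts within 600 bp upstream, a divergent neighbor, was present for 452 of 1611 digest-sensitive genes (28.1%, 25.9 to 30.3%), 17.9% of the others (17.2 to 18.6%) and 12.9% of all genes. Accordingly 308 digest-sensitive genes shared a nucleosome with another one. Intronless genes were fewer, with 11.2% (9.78 to 12.9%) against 18.1% (17.4 to 18.8%) and 18.9% over all genes. Of the promoters with a low digest center, 8.57% were digest-sensitive for genes without introns, 10.8% with 1 to 3, 16.0% with 4 to 9 and 18.0% with 10 or more introns, in order of intron number. The median gene was 2436 bp long with 4 introns, against 2074 bp and 3 introns in the other group. The window overlapped another annotated gene in 42.7% and 42.9%, and its GC content had a median of 34.9% in both. By chromosome, the share of genes ran from 5.18% (4.69 to 5.72%) on chromosome 1 to 6.52% (5.94 to 7.16%) on chromosome 5. Windows poor in GC rarely held a low digest center at all (6.62% in the poorest of 5 bins and 88.1% in the highest), and the digest-sensitive share of all genes ran from 1.45% to 12.2%. Of promoters with a low digest center it ran the other way at first, with 22.0%, 16.2%, 12.1%, 10.9% and 13.8% from the poorest to the richest bin.

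Gene classes were built from RefSeq product names or symbols and are read beside the 5.87% of all genes and the 13.1% of promoters with a low digest center. Of 51 classes with 20 or more genes, 14 lay above the former share and 7 held no digest-sensitive gene. In 6 of the 51 the whole interval lay above 5.87%, namely tubulins and actins, histones, ubiquitins and ubiquitin-conjugating enzymes, ribosomal proteins, pentatricopeptide repeat proteins and translation factors, and in 12 it lay below. Among promoters with a low digest center, the interval lay above 13.1% in 2 of these classes, tubulins and actins (31.3%, 14.2 to 55.6%) and ribosomal proteins (19.2%, 14.2 to 25.3%), and below it in 7. These 56 classes cover 365 of the 1611 genes, and class members were counted, with no test of any class. The classes differ in promoter GC content and in how often a low digest center is found, and the part of either in the class shares was not tested.

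**Figure D4:**
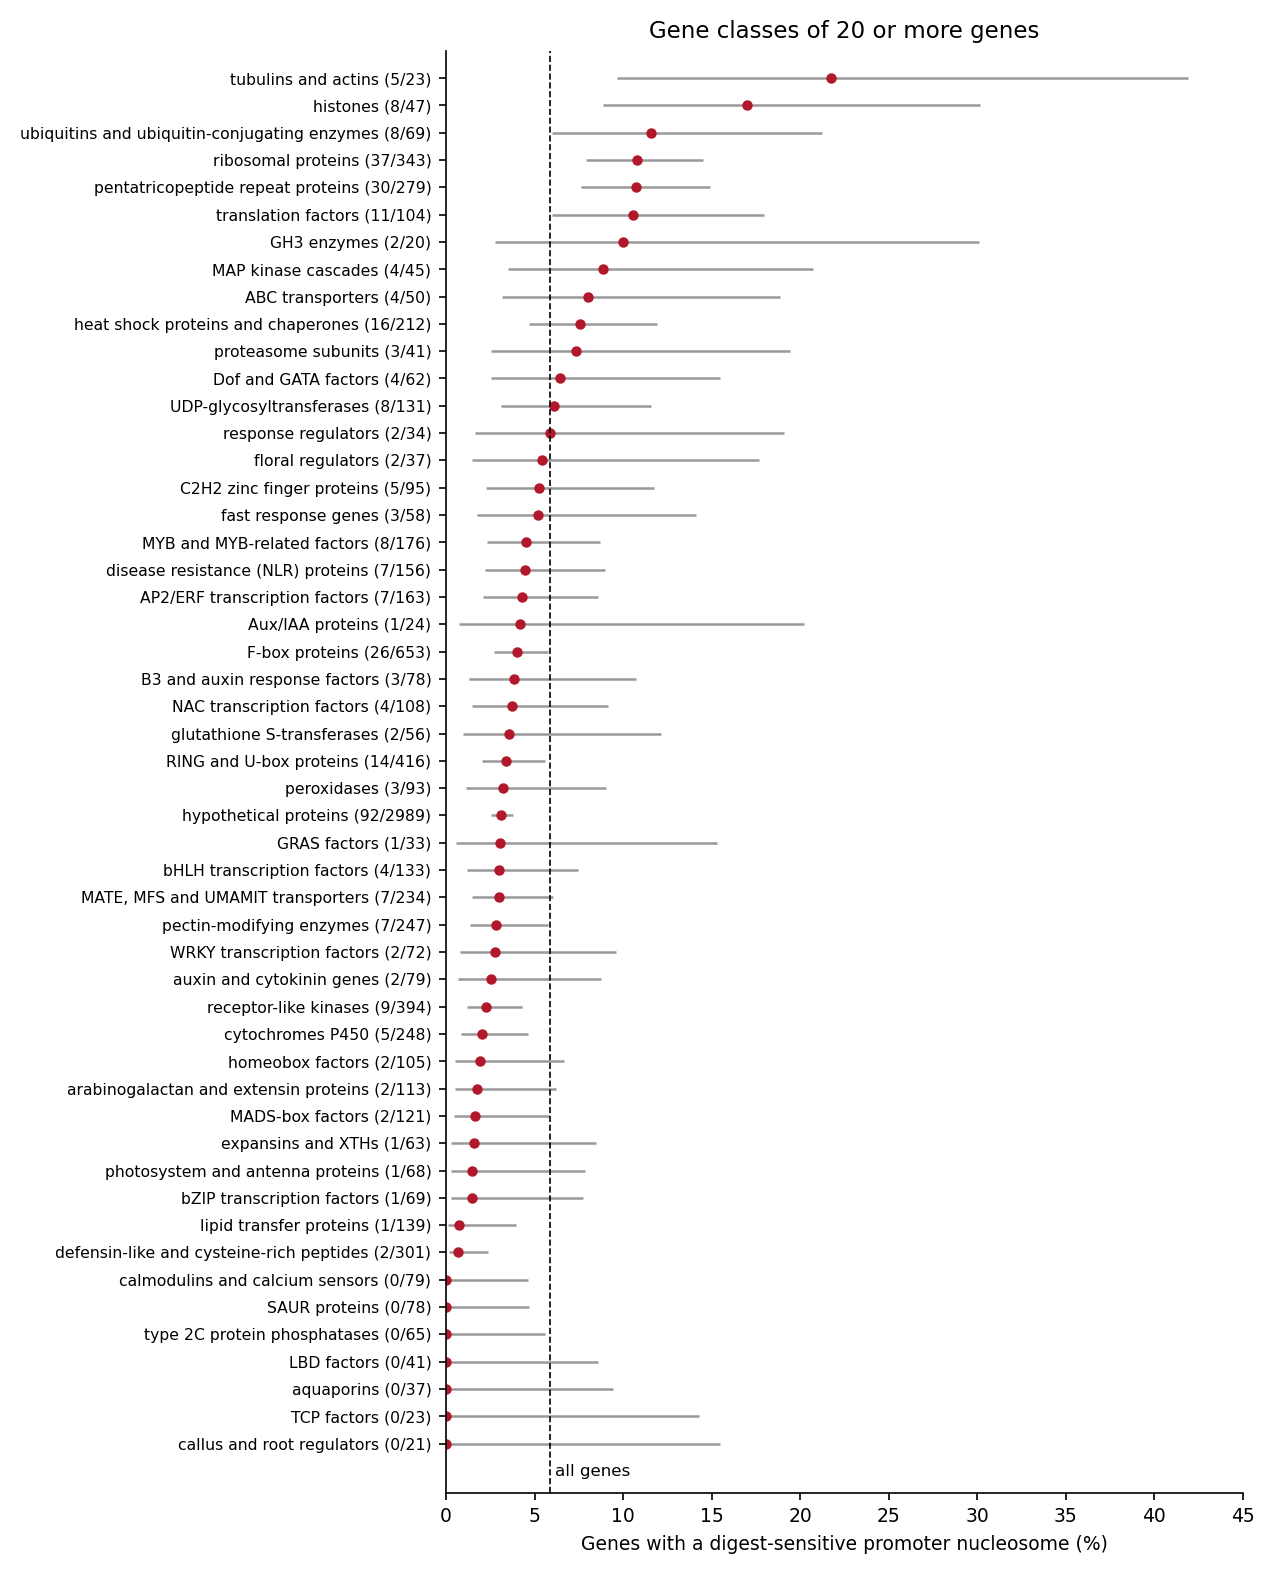
Percent of genes with a digest-sensitive promoter nucleosome in each class of 20 or more genes, with Wilson 95% intervals; brackets give digest-sensitive genes over class size, and the dashed line is the 5.87% of all genes. Tubulins and actins (5 of 23) and histones (8 of 47) lie at the top, and calmodulins, SAUR proteins, type 2C protein phosphatases, LBD factors, aquaporins, TCP factors and callus and root regulators lie at 0.

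Among classes of 20 or more genes, tubulins and actins and histones had the highest shares under the rule as stated. With windows that overlap another gene left out, histones were at 12.1%, below pentatricopeptide repeat proteins (15.0%), ubiquitins and ubiquitin-conjugating enzymes (13.6%) and translation factors (12.5%), and tubulins and actins were at 15.0%. Among tubulins and actins, which build microtubules and filaments, 5 of 23 genes were digest-sensitive (21.7%, 9.66 to 41.9%). ACT11 at -48 bp and ACT8 at -238 bp had occupancy percentiles of 98.0 and 96.1 and 130 bases covered in either dex list. ACT3 at -65 bp ranked at 79.9, with 100 bases covered in low digest dex against 90 in the list labelled high digest dex. TUA2 and TUB8 were covered in low digest dex over 100 and 120 bases but over 0 in the list labelled high digest dex. Among histones, which form the nucleosome core, 8 of 47 genes (17.02%, 8.89 to 30.1%) were digest-sensitive. HTA9, a gene of the H2A.Z type, had its center at -14 bp and a percentile of 93.8, with 130 and 140 bases covered. RAT5, an H2A gene, had its center at -135 bp with 0 and 120 bases covered. HIS4, an H4 gene, had 2 digest-sensitive nucleosomes, at -123 and -13 bp. TGGGCC was in the windows of 3 of the 8 digest-sensitive histone genes, beside 38.3% of all histone genes. It was in 1 of the 5 digest-sensitive tubulin and actin genes, beside 34.8% of that class. Counts of 8 and 5 genes are too small to show or exclude an excess.

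Genes of protein synthesis had shares slightly below the 11.6% of ubiquitins and ubiquitin-conjugating enzymes. Of 343 ribosomal protein genes, cytosolic and organellar, 37 were digest-sensitive (10.8%, 7.93 to 14.5%), which was 19.2% of the 193 with a low digest center. STV1, for a protein of the large subunit, had its center at -137 bp and a percentile of 99.3, with 140 and 50 bases covered in low digest dex and the list labelled high digest dex. RPS6, a small subunit protein that is phosphorylated downstream of TOR, had its center at -8 bp and a percentile of 97.5, with 0 and 50 bases covered. EMB3113, for a protein of the S5 family, had its center at -96 bp with 0 and 140 bases covered. Ribosomal promoters were thus not uniform across the dex lists. TGGGCC was in 26 of the 37 digest-sensitive ribosomal windows, beside 45.2% of all ribosomal protein genes. Of 104 translation factor genes, 11 were digest-sensitive (10.6%, 6.01 to 18.0%), among them LOS1, an elongation factor of the EF-2 type, at -70 bp with 110 and 0 bases covered. EIF2 ALPHA, a subunit of the factor that brings the initiator tRNA, had its center at -76 bp with 0 and 120 bases covered, and FBR12, an eIF-5A gene, at -28 bp with 110 and 50. Pentatricopeptide repeat proteins, which process organellar RNA, had 30 of 279 genes (10.8%, 7.64 to 14.9%). TGGGCC was in the windows of 18 of these 30, beside 22.2% of all genes of the class. Among the 30, emb1796, EMB2279 and CRR4 had centers at -49, -21 and -71 bp and percentiles of 77.0, 73.4 and 67.3.

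Protein turnover was divided. Ubiquitins and ubiquitin-conjugating enzymes had 8 of 69 genes (11.6%, 5.99 to 21.2%), and the median occupancy percentile of their nucleosomes was 94.6. Beside UBQ10 and UBQ14, UBC3 had its center at -142 bp, a percentile of 99.0 and 80 and 130 bases covered. Proteasome subunits had 3 of 41 (7.32%), with RPN1A and RPN1B, paralogous genes for the base of the regulatory particle, at -30 and -40 bp and percentiles of 56.8 and 52.0. RPN1A had 130 and 0 bases covered and RPN1B 120 and 130. Substrate-selecting ligases were lower, with 26 of 653 F-box genes (3.98%, 2.73 to 5.77%) and 14 of 416 RING and U-box genes (3.37%, 2.02 to 5.57%), both intervals below 5.87%. Of those with a low digest center, however, the shares were 9.81% (6.78 to 14.0%) and 9.27% (5.60 to 15.0%), and both intervals include 13.1%. TGGGCC was in the windows of 17 of the 26 digest-sensitive F-box genes, beside 16.2% of all F-box genes. Heat shock proteins and chaperones had 16 of 212 (7.55%, 4.70 to 11.9%), with EDA3, TPR15 and P58IPK, all with DnaJ-type domains, at -61, -85 and -179 bp.

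Signaling classes were mostly below the share of all genes. MAP kinase cascades had 4 of 45 genes (8.89%, 3.51 to 20.7%): MPK16, MPK5 at -4 bp with 130 and 0 bases covered, MKK2 at -38 bp with 110 and 140, and MAPKKK5 at -26 bp with 0 in either list. Receptor-like kinases, in contrast, had 9 of 394 (2.28%, 1.21 to 4.28%). FER, a receptor for peptide signals in cell growth, had its center at -13 bp and a percentile of 85.1 but 0 bases covered in either dex list. ER, the receptor kinase whose mutation marks the Landsberg erecta background, had its center at -190 bp with 0 bases covered in low digest dex against 140 in the list labelled high digest dex. SERK5 at -101 bp had 0 bases covered in either. Of the 79 calmodulin and calcium sensor genes and 65 type 2C protein phosphatase genes none was digest-sensitive (0 allows a share of up to 3.80% and 4.62%), although 31 and 26 of them had a low digest center. The calcium sensor class was matched by product name and does not include the digest-sensitive gene TCH2, whose product name reads EF hand calcium-binding protein family, so its 0 does not cover all calcium sensors.

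Transcription factor families ranged from 0 to 11.8%. Heat shock factors had 2 of 17 genes, HSFA1E at -96 bp with a percentile of 94.9 and 135 and 110 bases covered, and HSFA2 at -72 bp with a percentile of 17.4 and 60 and 0. Dof and GATA factors had 4 of 62 (6.45%), among them CDF3, a regulator of flowering time, at -28 bp with 115 and 120 bases covered. C2H2 zinc finger proteins had 5 of 95 (5.26%), MYB and MYB-related factors 8 of 176 (4.55%) and AP2/ERF factors 7 of 163 (4.29%). The AP2/ERF members were CRF7, ERF-1, CBF4, ORA59, RAP2.7, CRF1 and DEAR2. Known roles among them include cytokinin, ethylene and jasmonate responses, and RAP2.7 is a repressor of flowering. CRF1 had 2 digest-sensitive nucleosomes, at -194 and -94 bp. None of the 7 windows held TGGGCC, beside 11.7% of all AP2/ERF genes. RAP2.6 and Rap2.6L, the latter known from shoot regeneration of root explants, were digest-sensitive as well at -113 and -218 bp, but their RefSeq product names did not match the family and they were counted as unnamed. NAC factors had 4 of 108 (3.70%), bHLH factors 4 of 133 (3.01%), among them ICE1 of the cold response, and WRKY factors 2 of 72 (2.78%), WRKY31 and WRKY21. Homeobox factors had 2 of 105 (1.90%), HB6 and HB16, and bZIP factors 1 of 69. TCP factors (0 of 23, with 6 low digest centers) and LBD factors (0 of 41, with 12) had none, which allows shares of up to 13.0% and 7.32%.

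Most classes of metabolism, cell wall and defense had shares below that of all genes. UDP-glycosyltransferases, which attach sugars to small molecules, did not, with 8 of 131 genes (6.11%, 3.13 to 11.6%). Cytochromes P450 had 5 of 248 genes (2.02%, 0.864 to 4.63%), lipid transfer proteins 1 of 139 (0.719%, 0.127 to 3.96%), and photosystem and antenna proteins 1 of 68, LIL3:2. Defensin-like and cysteine-rich peptides had 2 of 301 (0.664%, 0.182 to 2.39%), but a low digest center was present in 7.31% of them only. SAUR genes, small genes induced by auxin, had 0 of 78, which allows a share of up to 3.85%, although 38 of them had a low digest center. SAUR promoters held TGGGCC in 2.56%, defensin-like promoters in 1.99% and P450 promoters in 3.63%, beside the 14.7% of all promoters. Disease resistance (NLR) genes had 7 of 156 (4.49%), with RPS4, an intracellular immune receptor, as the one with a symbol. This class was matched by product name, and the 7 include AT5G35180, an ENHANCED DISEASE RESISTANCE protein (DUF1336) that is not named as an NLR. Genes with product names such as hypothetical or uncharacterized had 92 of 2989 (3.08%, 2.52 to 3.76%).

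Regulators of flowering, meristems and hormone responses were few in number among the digest-sensitive genes. The 6 genes of the FLC clade, repressors of flowering, all had a low digest center, and FLC and MAF5 were digest-sensitive (33.3%, with a lower limit of 9.68%). Neither remained in the upper 50% of the low digest mock list or when the whole window had to be free of high digest intervals. MADS-box factors, the family the clade belongs to, had 2 of 121 genes (1.65%, 0.454 to 5.83%). Of 37 genes in the list of floral regulators, 11 had a low digest center and 2 were digest-sensitive. These were RAP2.7, an AP2-like repressor of flowering also called TOE1, and ACR7. The latter is named as an ACT domain repeat gene, and the study probed it as a locus bound by LFY, not as a floral regulator. AP1, the floral commitment gene, had 2 low digest centers, both overlapping high digest intervals, and LFY had none in its window. Of 19 shoot meristem regulators AS1, a MYB-type factor of leaf formation, was digest-sensitive, and of 21 callus and root regulators none was (up to 14.3% allowed, 6 with a low digest center). Of 58 fast response genes, which are induced within minutes by wounding or stress, 3 were digest-sensitive (ZAT11, ERF-1 and TCH2), and of 79 auxin and cytokinin genes 2 were, the cytokinin receptor HK3 (AHK3) and the response regulator ARR9. ACR7, already counted in the floral list, was the 1 of 5 loci studied singly that met the rule. These shares (5.41%, 5.26%, 5.17% and 2.53% for the floral, shoot meristem, fast response and hormone lists) have intervals that include 5.87%.

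The 10 digest-sensitive genes of these lists differed in the dex lists. ZAT11, a zinc finger factor of stress responses, had its center at -113 bp and all 140 bases covered in both. ARR9, a type-A response regulator that dampens cytokinin signaling, had its center at -47 bp with 130 and 140 bases covered. FLC, at -134 bp and a percentile of 48.7 in a window that overlaps another annotated gene, was covered over 0 bases in low digest dex against 130 in the list labelled high digest dex. For FLC, the interval was thus absent from the high digest mock list and present in the list labelled high digest dex. ERF-1, an ethylene response factor, followed FLC with its center at -151 bp and 0 and 120 bases, and AS1 did so at -82 bp with 0 and 130. HK3 at -137 bp and RAP2.7 at -78 bp were covered over 130 bases in low digest dex against 0 in the list labelled high digest dex. TCH2, a calmodulin-like gene induced by touch, ACR7 and MAF5, at -83, -115 and -92 bp, had 0 bases in either dex list. Their occupancy percentiles in low digest mock were 16.0, 8.33 and 2.64, the lowest of the 10. Besides ZAT11 and ARR9, no gene of the 10 was thus covered in both dex lists. None of the 10 windows held TGGGCC. Over the whole lists it was in 2.70% of the floral, 1.72% of the fast response and 3.80% of the auxin and cytokinin genes. It was in 0% of the FLC clade and shoot meristem lists.

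**Figure D5:**
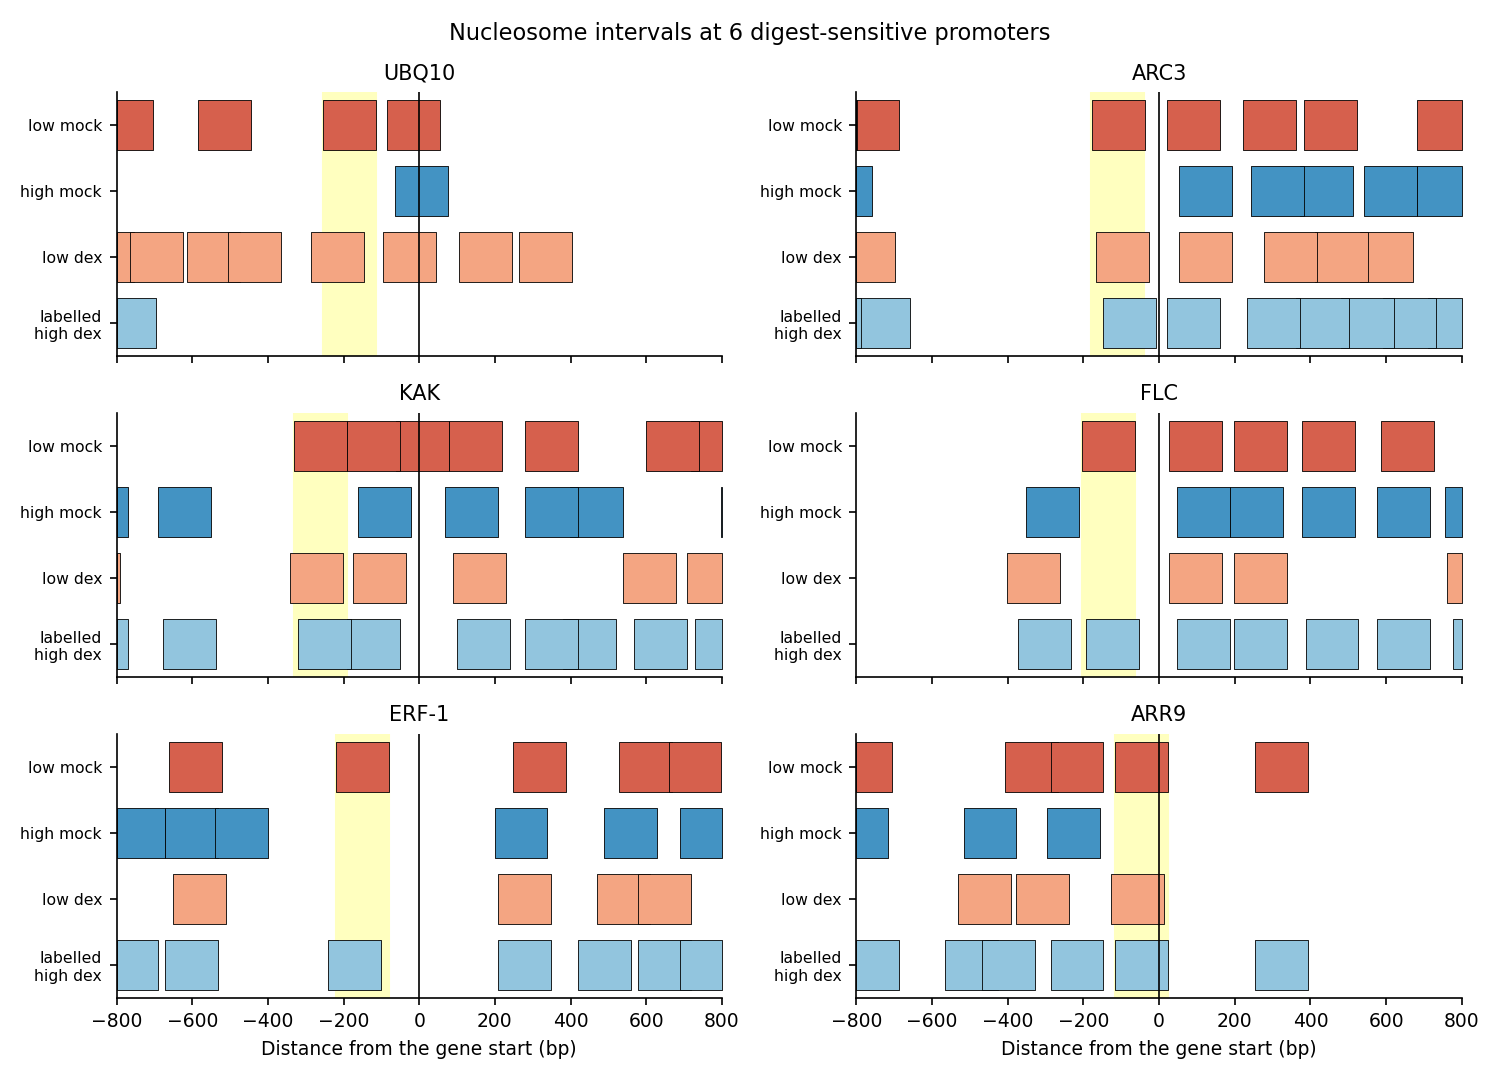
Nucleosome intervals of 140 bp in the 4 lists within 800 bp of the start of UBQ10, ARC3, KAK, FLC, ERF-1 and ARR9, by distance (bp) along the direction of the gene; the digest-sensitive nucleosome is shaded and the line marks the gene start. No high digest mock interval crosses the shading, whereas an interval of the list labelled high digest dex does at each of these genes except UBQ10.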

How the data were processed

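MNase-seq libraries (2 per condition, 8 in all) had been aligned to TAIR10 with Bowtie 1.2.2, keeping unique placements, and significant nucleosomes had been called with DANPOS. The lists are named as pooled, but pooling before calling is stated for low digest dex only, and how the other replicates were combined is not given in the sources used here. The submitters' processing notes also name Picard 2.9.4, without its role. The deposited lists hold intervals of 140 bp with an occupancy signal, which the authors derived from read coverage. Its scaling between lists is not known here, so it was used only as a rank within its list (percentile). Intervals on the 5 nuclear chromosomes were compared with RefSeq genes (TAIR10.1) in Python 3.11.15 with numpy 2.4.6, pandas 2.3.3 and scipy 1.17.1, and plotted with matplotlib 3.10.9. Centers from -300 to 0 bp were assigned to promoters, and 1 bp of overlap counted as shared. Coverage in a dex list meant at least 50% of the interval. Shares carry Wilson 95% intervals, and a count of 0 allows 3 counts. Genes and nucleosomes are not replicates, and no test was made. The overlap and assignment code was checked on simulated data.

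Named were the 12 members of highest rank with a symbol and a window free of other genes, up to 3 per class described, all members of the symbol lists, and up to 3 on each side of the overlap threshold. Class members named beyond these were chosen after their values were seen. Members, classes and lists were chosen with earlier results of these data known, and class patterns were trimmed of false name matches after a first search. A false match remained in the disease resistance class. Alternatives changed the overlap, the window, the list length, the occupancy threshold, neighboring genes and the counting of interval starts.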

Additional observations from a re-analysis of the deposited data

How the results depend on the processing

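The 1611 promoters became 2892 when 50% of the nucleosome had to be covered to count as shared, and 6280 with equal list sizes, and both sets held all 1611. They became 638 when the whole window had to be free of high digest intervals (559 of them among the 1611), 899 in the upper 50% of the low digest mock list and 923 without windows that overlap another gene. Windows of 200 or 500 bp, high digest intervals widened by 20 bp and starts counted from 1 gave 1452, 1890, 1188 and 1609. The share covered in low digest dex moved from 62.0% to 59.2% (window free), 67.8% (equal list sizes) and 79.4% (upper 50%), and that in the list labelled high digest dex from 63.2% to 59.2%, 78.4% and 77.8%. For TGGGCC, examined under these alternatives after seeing the data, 44.6% became 40.1% (50% covered), 37.6% (window free), 31.8% (equal list sizes), 49.2% (upper 50%) and 39.9% (window to -500 bp). The number of classes above the share of all genes was 10 to 18 instead of 14. The causes of these shifts were not tested. No paired analysis was possible because each condition is 1 list, and for the same reason no replicate could be left out. Depth is unknown, so absence from a list may be a matter of detection.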
